A study of Mus musculus with 6 samples.

Results

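A set of 9 genes of the endothelial tight junction was followed across mouse endothelial cell lines on whole-transcript arrays: the claudins Cldn5 and Cldn12, occludin (Ocln), the scaffold Tjp1, the immunoglobulin-type adhesion genes F11r, Jam2, Jam3 and Esam, and the paracingulin gene Cgnl1. They were taken by name, and each of the 9 had 1 probe set annotated to that gene alone, among 19936 genes measured that way. The series holds 3 endothelial lines derived from mouse embryonic stem cells, labelled by the cadherin they express: N-cadherin (N), VE-cadherin (VE) or both (VE+N). Each line was hybridised on 2 arrays, from 2 RNA extractions, so the design has 6 arrays and 1 line for each cadherin state. All 3 lines were treated alike: 50000 cells per square centimetre were plated, grown for 72 h to long confluence and then starved for 18 to 20 h with 1% albumin. Whether a line is 1 clone and how the cadherins were introduced are not given in the sources used here. The labels call the 2 arrays of a line biological replicates, without saying whether their extracts came from separate cultures, so a p-value here reflects only how far such extracts of 1 line differed, and a difference between cadherin states cannot be told apart from any other difference between the lines.

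Tight junctions close the space between neighbouring cells. Claudins form the seal itself, and Cldn5 is the main claudin of endothelium, most of all in vessels of the brain. Occludin is a second transmembrane protein of the seal, F11r (JAM-A), Jam2 (JAM-B), Jam3 (JAM-C) and Esam are adhesion molecules beside it, and Tjp1 (ZO-1) and Cgnl1 sit on the cytoplasmic side and tie the membrane proteins to actin. VE-cadherin at adherens junctions has been described to raise Cldn5 in endothelial cells, by limiting its repression by the transcription factor FoxO1 and beta-catenin. The comparisons below ask how the tight junction genes differ between lines labelled with either cadherin or both.

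Every line carried endothelial markers, and mural and fibroblast markers as well. Of the 2 cadherins only Cdh2 followed the order of the labels. All 16 measured endothelial markers, Pecam1, Cdh5 and Tek among them, lay above the dim reference on both arrays of every line. The dim reference is the 95th percentile of 1027 olfactory receptor genes, which ran from log2 4.27 to 4.41 over the 6 arrays. It is a rough guide, since probe sets differ in brightness. Cdh2 (N-cadherin) was 7.67 ± 0.012 (SD, n = 2) in the N-labelled, 6.69 ± 0.0105 in the VE+N-labelled and 5.86 ± 0.0933 in the VE-labelled line. Cdh5 (VE-cadherin) was 7.28 ± 0.0254, 7.10 ± 0.0832 and 6.94 ± 0.156 in the same order, and no difference in it passed the test (lowest adjusted p = 0.0917, limma). With median centring or repeated quantile normalization, Cdh5 was called lower in VE than in N, against the label (-0.44, adjusted p = 0.033, and -0.39, adjusted p = 0.0412). Cdh2 on the VE-labelled arrays (5.80 and 5.93) lay above the dim reference, so absence of N-cadherin from that line was not shown. In VE+N it differed from N by -0.97 (limma adjusted p = 0.000315). Directions below therefore rest on the labels. The leukocyte gene Ptprc (2.53 to 2.96 on the 6 arrays), the epithelial gene Epcam (3.37 to 3.76) and the pluripotency gene Pou5f1 (2.94 to 3.77) stayed below the dim reference on every array, and the epithelial cadherin Cdh1 lay at 4.07 to 4.57. Other markers of these types were brighter: 8 of 14 epithelial, 4 of 10 pluripotency and 3 of 9 leukocyte markers lay above the dim reference on both N-labelled arrays. Cd68, a lysosomal protein of macrophages, was 11.56 in N, 9.99 in VE and 8.68 in VE+N, and fell by 1.57, 2.88 and 1.31 in the 3 comparisons (limma adjusted p = 0.000196, 5.46e-06 and 0.000844). The pluripotency factor Klf4, which endothelium also expresses, rose from 7.88 in N to 8.55 in VE and 8.71 in VE+N. Its call in VE against N was lost without VE replicate 1 (adjusted p = 0.0569). Over the marker lists, 1 of 14 epithelial markers was called higher in VE against N and 0 in the other comparisons, 1, 1 and 0 of 10 pluripotency markers were called higher, and 1 of 9 leukocyte markers was called lower in each comparison. Of the 16 endothelial markers, 1 rose and 5 fell in VE against N, 4 and 2 in VE+N against N, and 5 and 0 in VE+N against VE. These are 37.5%, 37.5% and 31.2% of the list, where 15.4%, 19.1% and 10.1% of all genes were called, and the counts of 6, 6 and 5 fell to 3 (without N replicate 2 or VE replicate 2), 1 (without N replicate 1; 2 without N replicate 2 and 3 without VE+N replicate 2) and 1 (without either VE array; 2 without VE+N replicate 2 and 3 without either N array). The share over all genes is a low reference for this bright endothelial list, as set out below. The mean over 13 mural cell and fibroblast markers was 5.63 to 5.65 on the N-labelled, 6.35 to 6.51 on the VE-labelled and 4.45 to 4.55 on the VE+N-labelled arrays. Above the dim reference on both arrays lay 10 of these 13 markers in N, 11 in VE and 8 in VE+N. In VE against N 5 of them rose and 2 fell, and in VE+N against N and against VE 7 and 8 fell and 0 rose. Pdgfrb, the receptor that marks pericytes, was 9.04 in N, 8.48 in VE and 4.19 in VE+N, and the collagen gene Col3a1 was 8.34, 10.41 and 5.57. The largest rises among these markers in VE against N were those of Col1a1 (3.4, to 9.7), Dcn (3.07, to 8.18) and Pdgfra (2.52, to 8.12). Endothelial, mural and single leukocyte and pluripotency markers thus moved with the line, and their part in the results below was not tested. In RNA from whole cultures, fewer cells of a type and less RNA per cell cannot be told apart.

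Cldn5 and Cgnl1 were the members called higher in all 3 comparisons, and the sequences at their RefSeq transcription starts are shown here for that reason. RefSeq windows of 300 bases (250 before the start and 50 from it, build GRCm38.p6) were found for 6 of the 9 members, all but Jam2, Jam3 and Esam. The Cldn5 window is chr16:18776597-18776896 on the plus strand and that of Cgnl1 is chr9:71771553-71771852 on the minus strand. Both are written 5′ to 3′, with the matches to the general E-box letters CANNTG, read by basic helix-loop-helix factors, in capitals:
Cldn5: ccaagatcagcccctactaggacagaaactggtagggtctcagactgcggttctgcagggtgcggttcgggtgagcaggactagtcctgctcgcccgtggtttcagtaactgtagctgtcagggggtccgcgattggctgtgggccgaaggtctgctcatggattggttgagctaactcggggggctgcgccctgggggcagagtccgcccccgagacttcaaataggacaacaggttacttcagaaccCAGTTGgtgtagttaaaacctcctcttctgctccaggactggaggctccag
Cgnl1: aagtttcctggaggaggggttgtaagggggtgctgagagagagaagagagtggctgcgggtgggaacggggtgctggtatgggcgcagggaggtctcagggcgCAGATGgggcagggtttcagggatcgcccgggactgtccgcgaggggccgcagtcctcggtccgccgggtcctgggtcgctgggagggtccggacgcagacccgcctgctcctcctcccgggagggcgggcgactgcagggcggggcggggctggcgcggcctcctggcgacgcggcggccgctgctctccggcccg
Each window held 1 E-box. In Cldn5 it spans bases -1 to 5 around the start (counted with no base 0), and in Cgnl1 bases -147 to -142. E-box letters occur in 72.3% of all 32851 windows of that length. Both windows were also searched on both strands for 5 other motifs, whose letters are not in the Cldn5 or the Cgnl1 window. The FoxO letters GTAAACA are held by 3.65% of all windows of that length. The letters CTTTG, read by TCF factors at the end of the Wnt pathway, are held by 53.9%. For SOX factors the letters ACAAT were searched, which 31.0% of windows hold. The ETS core GGAAG is held by 71.4%, and the GATA letters AGATAA by 11.2%. The Cldn5 window has 58.3% G and C with 12 CG pairs, and that of Cgnl1 73.3% with 30 CG pairs, against a median window of 52.7% and 7.

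Cldn5 had the widest spread between lines of any of the 9 genes. Its log2 signal was 6.14 and 6.34 on the N-labelled, 9.26 and 9.26 on the VE-labelled and 11.55 and 11.81 on the VE+N-labelled arrays. The lines formed separate steps with no overlap, lowest with the N label and highest with both labels. With VE-cadherin as the label, signal stood 8.12-fold above that with N-cadherin (log2 difference 3.02 ± 0.125 (SE), 95% confidence interval 2.73 to 3.31, limma adjusted p = 4.75e-06). The VE+N-labelled line stood 43.4-fold above the N-labelled line (5.44 ± 0.125, interval 5.15 to 5.73, adjusted p = 2.09e-07). It also stood 5.34-fold above the VE-labelled line (2.42 ± 0.125, interval 2.13 to 2.71, adjusted p = 2.93e-05). Among the rises of all genes, Cldn5 had rank 25, 6 and 10 in these comparisons. The call held with each of the 6 arrays left out in turn, with values of 2.92 to 3.12, 5.31 to 5.57 and 2.29 to 2.55. Cldn5 lay above the dim reference on all 6 arrays, the N-labelled ones included.

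Cldn12, a claudin of broad tissue range, did not follow Cldn5. Its signal was 5.64 and 5.70 on the N-labelled, 5.18 and 4.96 on the VE-labelled and 5.20 and 5.77 on the VE+N-labelled arrays. The VE-labelled arrays were the lowest, while the VE+N-labelled arrays lay 0.57 apart, the widest gap between replicates of any member in that line. No comparison passed. Against N, the VE-labelled line differed by -0.60 (interval -1.02 to -0.19, limma adjusted p = 0.0625) and VE+N by -0.18 (-0.59 to 0.24, adjusted p = 0.583), and VE+N lay 0.42 from VE (0.01 to 0.84, adjusted p = 0.209). Without VE+N replicate 1 the last of these was 0.70 (adjusted p = 0.027) and VE+N against N turned to 0.10 (adjusted p = 0.632). VE against N also passed with only the 4 arrays compared (adjusted p = 0.0144), a fit that leaving out either VE+N array repeats. It passed as well with median centring (-0.71, adjusted p = 0.0343), repeated quantile normalization (-0.70, 0.0382), the dimmest 25% of genes removed (0.0441), a trended robust prior (0.0329) and array weights (0.0207).

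The other claudins stayed low. Of 21 measured, 8 lay above the dim reference on all 6 arrays, 6 on some and 7 on none, and their signals ran from 2.74 to 6.46. The median range of a claudin over the 6 arrays was 0.43, against 5.67 for Cldn5. Cldn15, a claudin that forms cation pores in gut epithelium, was the 1 claudin beside Cldn5 to be called, in 2 comparisons. It was 6.46 and 6.04 on the N-labelled, 5.20 and 5.05 on the VE-labelled and 5.31 and 5.09 on the VE+N-labelled arrays, and so was lower by -1.12 ± 0.157 for VE (limma adjusted p = 0.00212) and by -1.05 ± 0.157 for VE+N (adjusted p = 0.00234) against N. The opposite directions of Cldn5 and Cldn15 against the N-labelled line held with every array left out. Cldn3, another claudin named for brain endothelium, ranged over 0.43 and was not called (it was picked out after its values were seen).

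Occludin was dim in every line. Ocln was 2.79 and 2.77 on the N-labelled, 2.77 and 2.32 on the VE-labelled and 2.57 and 2.31 on the VE+N-labelled arrays. All 6 values lay below the dim reference, and 3 of them below the median olfactory receptor gene. None of its differences, -0.23, -0.34 and -0.11, passed the test (lowest limma adjusted p = 0.199).

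**Figure D1:**
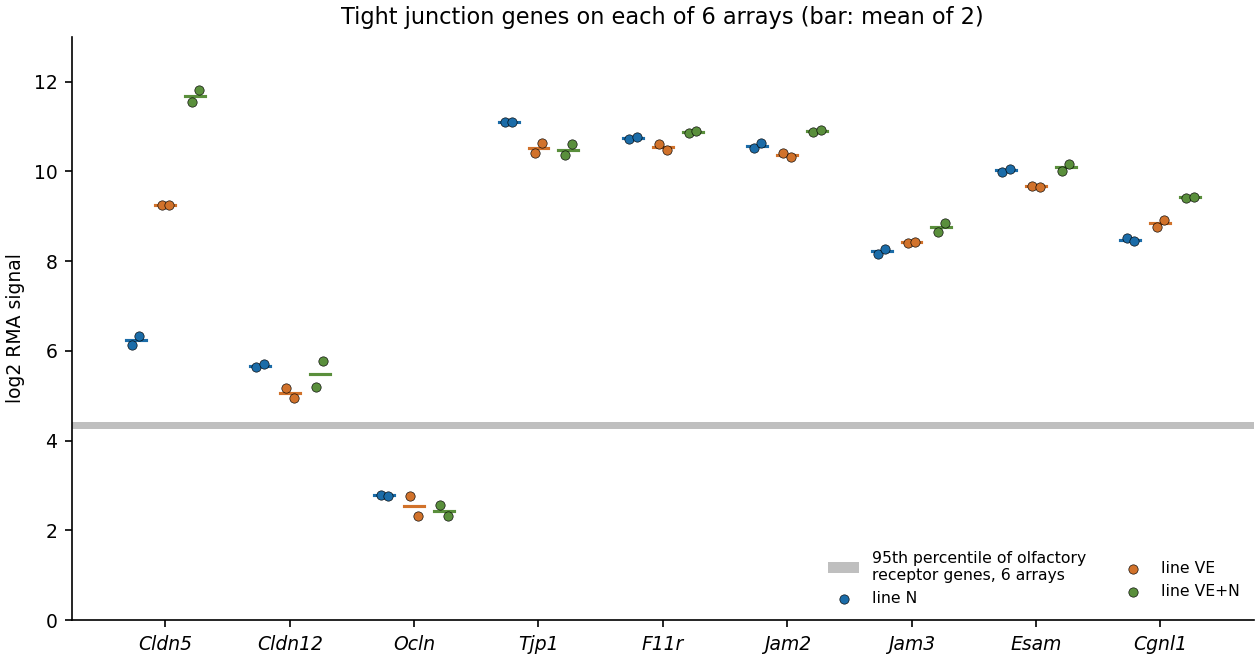
Log2 RMA signal of the 9 tight junction genes (vertical axis) on each array, by line (blue N, orange VE, green VE+N), with a short bar at the mean of the 2 arrays and a grey band at the 95th percentile of olfactory receptor genes (4.27 to 4.41). Cldn5 climbs from 6.24 through 9.26 to 11.68, Ocln lies under the band, and each of the other 7 genes spans at most 1 log2 unit over the 6 arrays.

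The junctional adhesion molecules were bright in every line and differed by small amounts, with the highest mean in the VE+N-labelled line for each of the 4 genes. F11r (JAM-A) was 10.73 and 10.77 on the N-labelled, 10.62 and 10.47 on the VE-labelled and 10.86 and 10.89 on the VE+N-labelled arrays. The lines did not overlap in F11r, but no comparison passed: VE+N against VE differed by 0.33 (95% interval 0.09 to 0.56, limma adjusted p = 0.0931), VE against N by -0.21 (-0.44 to 0.03) and VE+N against N by 0.12 (-0.12 to 0.35). With the arrays centred on their medians the first of these passed, at 0.41 (adjusted p = 0.0382).

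Jam2 (JAM-B), which binds JAM-C on the neighbouring cell, was 10.51 and 10.63 on the N-labelled, 10.40 and 10.31 on the VE-labelled and 10.87 and 10.93 on the VE+N-labelled arrays. It rose by 0.55 ± 0.103 (1.46-fold) in VE+N against VE (limma adjusted p = 0.0129). The difference of 0.33 from the N-labelled line missed the threshold (interval 0.10 to 0.57, adjusted p = 0.060), as did -0.21 for VE against N (-0.45 to 0.02). The call for VE+N against VE was lost without VE replicate 1 (adjusted p = 0.0616), VE replicate 2 (adjusted p = 0.105) or VE+N replicate 2 (adjusted p = 0.0619).

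Jam3 (JAM-C) was 8.17 and 8.27 on the N-labelled, 8.41 and 8.43 on the VE-labelled and 8.65 and 8.86 on the VE+N-labelled arrays, and its lines followed the order of Cldn5 without overlap. It rose by 0.53 ± 0.110 (1.45-fold) in VE+N against N (limma adjusted p = 0.0115). Its neighbours in that order were not separated by the test: VE against N differed by 0.19 (interval -0.06 to 0.45) and VE+N against VE by 0.34 (0.08 to 0.59, adjusted p = 0.104). The call was lost without N replicate 1 (adjusted p = 0.0907) or VE+N replicate 2 (adjusted p = 0.0502).

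Esam, an adhesion molecule of endothelium and platelets, was 9.99 and 10.05 on the N-labelled, 9.68 and 9.65 on the VE-labelled and 10.01 and 10.17 on the VE+N-labelled arrays. The VE-labelled arrays were lowest, and the N-labelled and VE+N-labelled arrays overlapped. It rose by 0.42 ± 0.103 (1.34-fold) in VE+N against VE (limma adjusted p = 0.0394), while -0.35 for VE against N (interval -0.58 to -0.11, adjusted p = 0.061) and 0.07 for VE+N against N (-0.16 to 0.31) did not pass. The rise was lost without either VE array (0.44 and 0.41) or VE+N replicate 2 (0.34), and with repeated quantile normalization (0.35, adjusted p = 0.0533). It was also lost with only the 4 arrays compared (adjusted p = 0.0785). Leaving out either N array repeats that fit, since the N-labelled arrays enter this comparison only through the shared spread. The difference of VE from N passed with only the 4 arrays compared (adjusted p = 0.0426), which leaving out either VE+N array repeats. It passed as well with median centring (-0.45, adjusted p = 0.0238).

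The cytoplasmic genes moved in opposite directions. Tjp1 (ZO-1), the scaffold that binds claudins, occludin and JAM-A, was 11.10 and 11.10 on the N-labelled, 10.42 and 10.63 on the VE-labelled and 10.36 and 10.60 on the VE+N-labelled arrays. The N-labelled arrays were highest, and the other 2 lines overlapped. Tjp1 fell by 0.57 ± 0.123 on the log2 scale in VE (limma adjusted p = 0.0165) and by 0.62 ± 0.123 in VE+N (adjusted p = 0.00941) against N. VE+N against VE differed by -0.05 (interval -0.33 to 0.24), and this sign turned with median centring (0.04). The fall in VE was lost without N replicate 1 (adjusted p = 0.0837), N replicate 2 (0.0852) or VE replicate 1 (0.123), and the fall in VE+N without N replicate 1 (0.0528) or N replicate 2 (0.0523).

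Cgnl1 (paracingulin), a cytoplasmic protein of tight and adherens junctions, was 8.51 and 8.45 on the N-labelled, 8.77 and 8.92 on the VE-labelled and 9.41 and 9.44 on the VE+N-labelled arrays. Its lines stood in the order of Cldn5 with no overlap. Its rise was 0.95 ± 0.102 (1.93-fold) in VE+N against N (limma adjusted p = 0.000417), which held with every array left out (0.92 to 0.98). It was 0.58 ± 0.102 (1.5-fold) in VE+N against VE (adjusted p = 0.00963), and without VE replicate 1 this missed the threshold (0.50, adjusted p = 0.0837). The smallest step, 0.37 ± 0.102 (1.29-fold) in VE against N (adjusted p = 0.0465), was lost without either N array (adjusted p = 0.167 and 0.239) or either VE array (0.0858 and 0.237) and with median centring (0.26, adjusted p = 0.127).

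**Figure D2:**
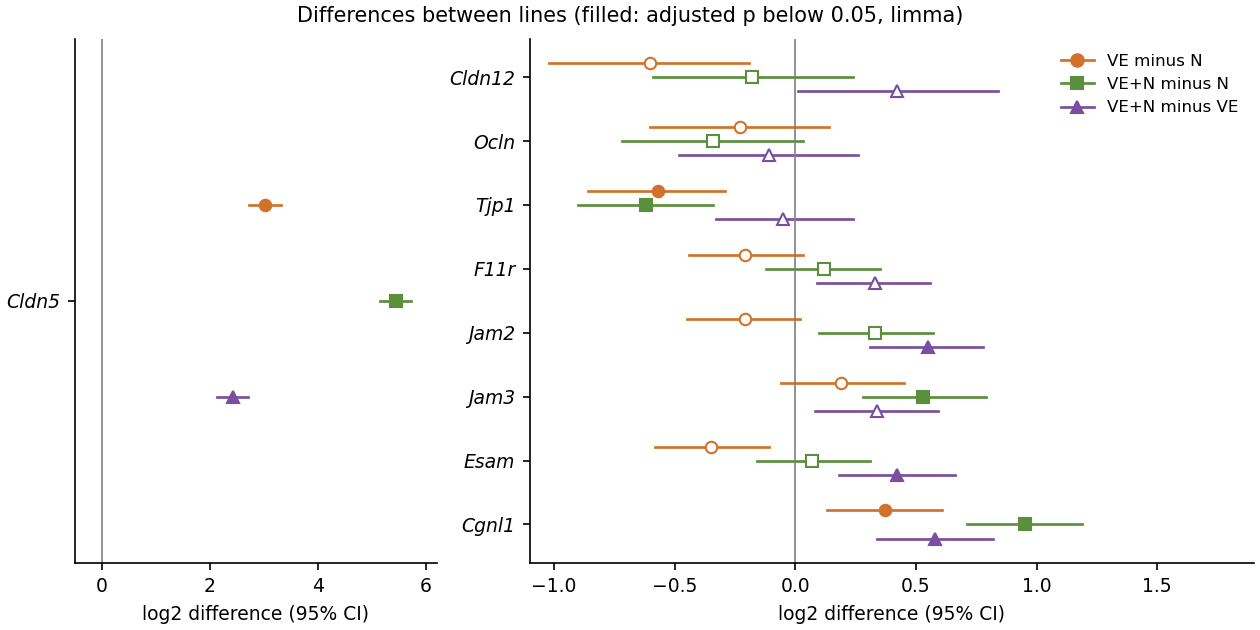
Log2 difference between lines (horizontal axis, with 95% confidence interval) for Cldn5 (left panel, wider scale) and the other 8 genes (right panel), with filled symbols for limma adjusted p below 0.05; circles are VE minus N, squares VE+N minus N and triangles VE+N minus VE. Cldn5 lies at 3.02, 5.44 and 2.42, while every other gene lies between -0.62 and 0.95.

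Counted over the 9 genes, VE against N called 2 higher (Cldn5, Cgnl1) and 1 lower (Tjp1), or 33.3%, where 15.4% of all 19936 genes were called (8.46% higher and 6.99% lower). VE+N against N called 3 higher (Cldn5, Jam3, Cgnl1) and 1 lower (Tjp1), or 44.4%, against 19.1% of all genes (10.2% higher and 8.91% lower). VE+N against VE called 4 higher (Cldn5, Jam2, Esam, Cgnl1) and 0 lower, also 44.4%, against 10.1% of all genes (4.29% higher and 5.84% lower). The split over all genes depended on the scaling: 1686 were called higher and 1393 lower in VE against N, but 1283 and 2398 with median centring, and 855 and 1165 in VE+N against VE became 1533 and 990. The comparisons share lines, so these counts are not independent. Most of the 9 genes were bright, and bright genes were called more often. Among the 50% of genes left after the dimmest 50% were removed, 3530, 4216 and 2597 were called. These are more than the 3079, 3802 and 2020 over all 19936 genes. The share over all genes is therefore a low reference for bright lists. Such lists are most of these 9 genes, the 14 regulators and the 16 endothelial markers. The median difference of the 9 genes was -0.21, 0.12 and 0.42 in the same order, beside -0.021, -0.004 and 0.029 over all genes. The arrays of the compared lines did not overlap for 8, 7 and 7 of the 9 genes, where 57.3%, 55.1% and 49.5% of all genes did not overlap. The higher array of the VE+N-labelled pair was replicate 2 for 8 of the 9 genes, beside 49.5% of all genes, and its part in the results was not tested. The calls of Cldn5 held without that array, while those of Jam2, Jam3 and Esam named above did not.

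**Figure D3:**
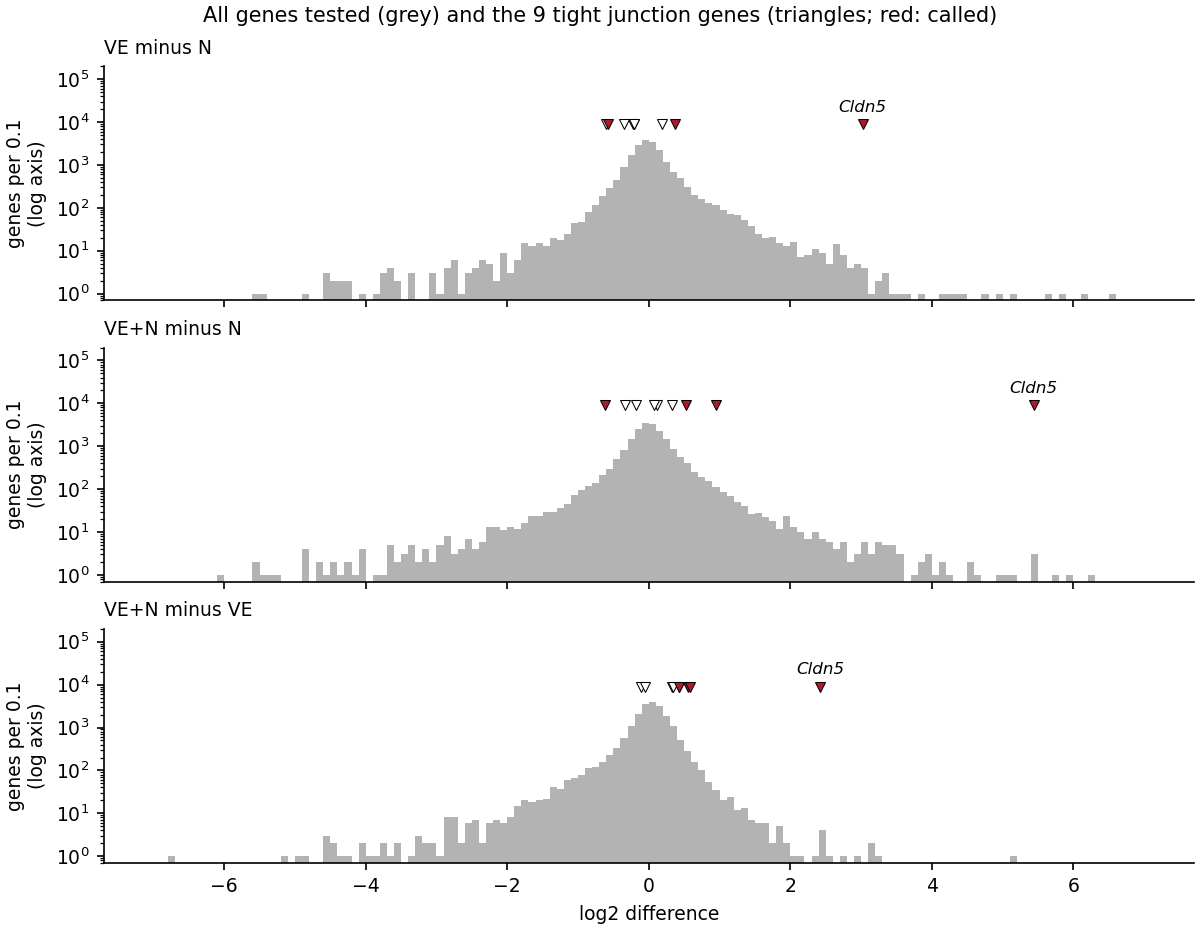
Histograms of the log2 difference of all 19936 genes (grey; the vertical axis counts genes per bin of 0.1 and is logarithmic) in the 3 comparisons, with a triangle for each of the 9 tight junction genes, red where called. Cldn5 lies in the outer right tail of each histogram (ranks 25, 6 and 10), and the other 8 triangles lie within 1 log2 unit of 0.

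The genes at the smallest distance from Cldn5 over the arrays were not junction genes. Likeness was measured as the root mean square distance between profiles centred on their own mean, over 6 arrays from 3 lines, so that it rests mainly on the 3 line means. The distance also counts the size of a change. Cldn5 ranged over 5.67 and the other members over at most 1, so none of them could lie near. Jam3, Cgnl1, Pard3 and Ptprb took the order of Cldn5 with smaller steps, as did the means of Epas1, Erg, Tcf7l2, Prkci and Klf4. How many of all genes take this order was not counted. The nearest was Il13ra2, a decoy receptor for interleukin 13, at a distance of 0.201 log2 units (r = 0.998), with means of 4.21, 7.6 and 10 in N, VE and VE+N. Prelp, a leucine-rich matrix protein, followed at 0.286 and Rp1, a gene of photoreceptor microtubules, at 0.305. Slc14a1, a urea transporter, lay at 0.382 and Cd200, a surface glycoprotein that restrains myeloid cells, at 0.522. For scale, the profile of Cldn5 itself had a root mean square size of 2.23. The genes nearest to Cgnl1 were Rbm18 (0.0442), Cdadc1 (0.0486) and Atg3 (0.0511), and those nearest to Tjp1 were Wdr55 (0.0406), Svil (0.0448), which encodes the actin-binding supervillin, and the efflux transporter Abcg2 (0.047). The profiles of Cgnl1 and Tjp1 had sizes of 0.394 and 0.296.

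**Figure D4:**
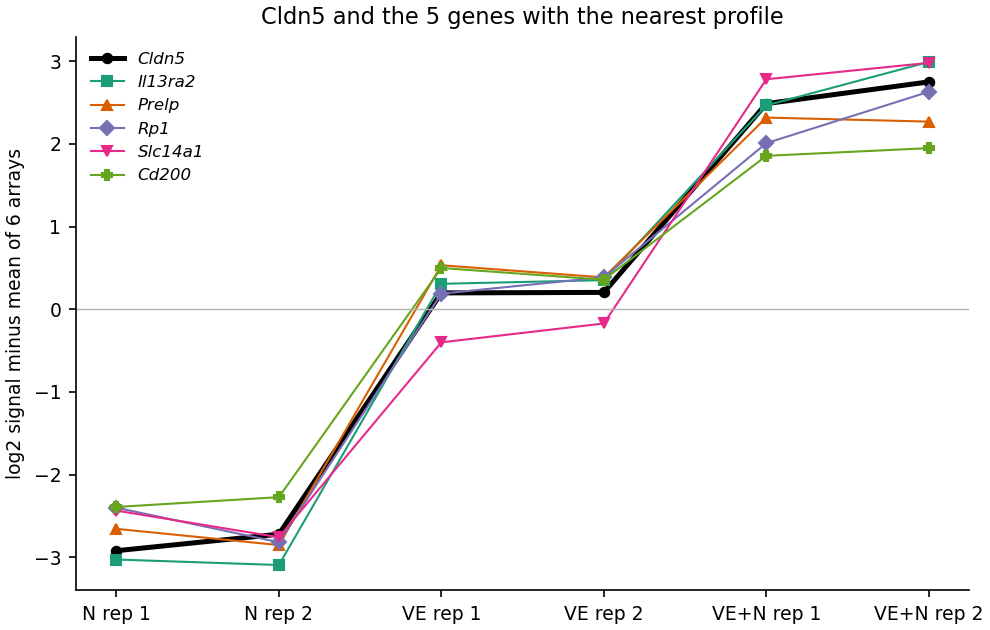
Log2 signal minus the gene's own mean over the 6 arrays (vertical axis) for Cldn5 (thick black) and the 5 genes at the smallest distance, on each array by line and replicate. All 6 genes step up from N to VE and from VE to VE+N; Slc14a1 has the lowest VE values of the set, and Cd200 the smallest overall span.

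The rest of the tight junction pathway was described with 60 further genes, of which 55 were measured. Few were called: 3 higher and 3 lower in VE against N (10.9%, beside 15.4% of all genes), 3 and 6 in VE+N against N (16.4%, beside 19.1%), and 1 and 3 in VE+N against VE (7.27%, beside 10.1%). The counts of 6, 9 and 4 ran from 4 to 10, 5 to 10 and 2 to 5 with single arrays left out: VE against N rose to 10 without either VE+N array and was 4 without either N array or VE replicate 1, VE+N against N was 5 without N replicate 1, and VE+N against VE was 2 without VE+N replicate 2. The list medians of -0.01, -0.01 and 0.00 lay close to those of all genes. Among membrane proteins other than claudins, Ildr2, a gene of tricellular contacts, fell by 0.97 ± 0.126 on the log2 scale in VE+N against VE (limma adjusted p = 0.00221). The adhesion gene Clmp fell by 1.06 ± 0.221 in VE+N against N (adjusted p = 0.012), although its signal of 3.64 in VE+N was below the dim reference. That call was lost without N replicate 1 (adjusted p = 0.0664) or VE+N replicate 2 (0.0582). The coxsackievirus receptor gene Cxadr, also dim in VE+N at 3.98, fell by 0.63 ± 0.128 against N (adjusted p = 0.0105) and by 0.56 ± 0.128 against VE (adjusted p = 0.0294). The former was lost without N replicate 1 (0.0695) or VE+N replicate 2 (0.0526), and the latter without VE replicate 1 (0.0819), VE replicate 2 (0.193) or VE+N replicate 2 (0.124).

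Calls were also made among the polarity kinases and scaffolds. Prkcz, the zeta form of atypical protein kinase C in the Par polarity complex, was 6.33 and 6.03 on the N-labelled, 5.07 and 5.14 on the VE-labelled and 6.85 and 7.12 on the VE+N-labelled arrays. The VE-labelled line was lowest and the VE+N-labelled line highest, with no overlap. Against the N-labelled line it fell by 1.08 ± 0.14 on the log2 scale in VE (limma adjusted p = 0.00147) and rose by 0.80 ± 0.14 in VE+N (adjusted p = 0.00521). The step from VE up to VE+N was 1.88 ± 0.14 (adjusted p = 0.000155), and all 3 calls held with every array left out. Pard3, the Par complex scaffold, took the order of Cldn5: 7.06 and 6.86 on N-labelled, 7.51 and 7.40 on VE-labelled and 7.81 and 8.13 on VE+N-labelled arrays. It rose by 1.01 ± 0.135 in VE+N against N (adjusted p = 0.00136), which held with every array left out. Its rise of 0.50 in VE against N (adjusted p = 0.0446) was lost without either N array (0.0801 and 0.24) or either VE array (0.219 and 0.135) and with median centring (0.39, adjusted p = 0.0961).

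Prkci, the other atypical kinase, rose by 0.50 ± 0.109 in VE against N (limma adjusted p = 0.0173), and lost that call without either N array (0.0959 and 0.0985) or either VE array (0.0506 and 0.124). Its rise of 0.58 ± 0.109 in VE+N against N (adjusted p = 0.00719) held with every array left out. Micall2, which acts with Rab13 in the recycling of occludin, fell by 0.85 ± 0.0961 in VE (adjusted p = 0.000722) and by 0.82 ± 0.0961 in VE+N (adjusted p = 0.000651) against N, with every array left out as well. Cingulin (Cgn), the paralogue of Cgnl1, rose by 0.84 ± 0.171 in VE against N (adjusted p = 0.0128), and without N replicate 2 missed the threshold (adjusted p = 0.0631). It stood at 0.44 in VE+N against N (interval 0.05 to 0.84, adjusted p = 0.124) and at -0.40 in VE+N against VE (-0.80 to -0.01, adjusted p = 0.209). The former passed with only the 4 arrays compared, which leaving out either VE array repeats, and the latter without VE replicate 1 (-0.68). Amotl2, an angiomotin that links junctions to actin, fell by 0.48 ± 0.104 in VE+N against VE (adjusted p = 0.0252), a call lost without VE replicate 1 (0.141), VE replicate 2 (0.122) or VE+N replicate 2 (0.1).

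Among 14 transcription regulators linked to Cldn5 or to the repression of junction genes, all measured, changes were small beside that of Cldn5. In VE against N 2 rose and 4 fell (42.9%), in VE+N against N 4 rose and 2 fell (42.9%), and in VE+N against VE 2 rose and 3 fell (35.7%), beside 15.4%, 19.1% and 10.1% of all genes. That share is a low reference for this bright list, whose mean was 9.12 to 9.21 over the arrays. Leaving out single arrays removed many of these calls, and in most such fits of the lines compared fewer genes were called over all genes too. The 6 calls in VE against N fell to 0 without N replicate 1 or VE replicate 2 and to 1 without N replicate 2 or VE replicate 1, while the unmoderated analysis of variance called 8 there at unadjusted p below 0.05 and 2 after adjustment. The 6 in VE+N against N fell to 2 without N replicate 1 and 3 without N replicate 2. The 5 in VE+N against VE fell to 1 with only the 4 arrays compared, which leaving out either N array repeats. They also fell without either VE or either VE+N array. The largest difference of any of the 14 was -1.18. Foxo1, picked out after its values were seen, was 8.38 and 8.32 on the N-labelled, 8.66 and 8.51 on the VE-labelled and 8.49 and 8.52 on the VE+N-labelled arrays. No Foxo1 comparison passed (lowest adjusted p = 0.187), and the widest interval bound was 0.47. Transcript level does not report the place or the modification of the FoxO1 protein. The beta-catenin gene Ctnnb1, likewise picked out, was 11.86 in N, 11.47 in VE and 11.58 in VE+N on average, and -0.38 ± 0.0964 for VE against N passed (adjusted p = 0.0323). That call was lost without either N array (0.144 and 0.195) or either VE array (0.115 and 0.158) and with repeated quantile normalization (-0.27, adjusted p = 0.0912).

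Ets1, an ETS factor of endothelium, had the largest difference in that list and stood at 10.33 and 10.36 on the N-labelled, 9.84 and 9.83 on the VE-labelled and 9.16 and 9.18 on the VE+N-labelled arrays. It ran opposite to Cldn5, with falls of 1.18 ± 0.0937 on the log2 scale in VE+N against N (limma adjusted p = 8.39e-05) and 0.67 ± 0.0937 in VE+N against VE (adjusted p = 0.00336), both held with every array left out. The fall of 0.51 in VE against N (adjusted p = 0.00799) was lost without either N array (0.0567 and 0.0718) or either VE array (0.053 and 0.0585). Erg, the ETS factor that marks endothelium, was higher in the VE+N-labelled line, by 0.61 ± 0.110 against N (adjusted p = 0.0065) and 0.48 ± 0.110 against VE (adjusted p = 0.0306). The former was lost without N replicate 1 (0.51 to 0.70 over the left-out arrays). The latter was lost without VE replicate 1, VE replicate 2 or VE+N replicate 2 (0.38 to 0.58 over the left-out arrays). It was also lost with only the 4 arrays compared, which leaving out either N array repeats. Tcf7l2, a partner of beta-catenin on DNA, rose by 0.59 ± 0.106 in VE+N against N (adjusted p = 0.00607), a call lost without N replicate 2 (0.057). Not every called regulator is named here. Some smaller calls were lost on leaving out single arrays of the lines compared. They were those of Tal1 (-0.49) and Tcf7l2 (0.40) in VE against N and Fli1 (-0.40) in VE+N against VE. Among repressor genes they were Snai2 (0.46 in VE and 0.51 in VE+N against N) and Snai1 (-0.54 in VE+N against VE).

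Of 17 measured genes that control junction turnover and opening, 2 rose and 3 fell in VE against N, 2 and 1 in VE+N against N, and 3 and 0 in VE+N against VE. These are 29.4%, 17.6% and 17.6%, beside 15.4%, 19.1% and 10.1% of all genes, so the middle one is near the background. The 5 calls in VE against N fell to 2 without either N or either VE array. Ptprb, the phosphatase VE-PTP that binds VE-cadherin, took the order of Cldn5 at 9.63 and 9.54 on N-labelled, 10.84 and 10.95 on VE-labelled and 11.62 and 11.82 on VE+N-labelled arrays. Its rises of 1.31 ± 0.112, 2.14 ± 0.112 and 0.83 ± 0.112 were called in VE against N, VE+N against N and VE+N against VE (limma adjusted p = 0.000169, 8.3e-06 and 0.00273) and held with every array left out. Epas1, the hypoxia-inducible factor HIF-2alpha, rose by 0.62 ± 0.104 in VE and by 1.12 ± 0.104 in VE+N against N (adjusted p = 0.00507 and 0.000189). Its step of 0.50 from VE to VE+N (adjusted p = 0.0201) was lost without either VE array (0.0635 and 0.145) or either VE+N array (0.0614 and 0.0592). Plvap, a protein of fenestral diaphragms found in leaky vessels, was higher by 0.77 ± 0.0994 in VE+N against VE (adjusted p = 0.00219), after a fall of 0.46 ± 0.0994 in VE against N (adjusted p = 0.0174) that was lost without either N array (0.107 and 0.106) or either VE array (0.0558 and 0.12). Rapgef1, an exchange factor for Rap1, fell by 0.67 ± 0.1 in VE+N against N (adjusted p = 0.00245), which held with every array left out. Its fall of 0.42 in VE against N (adjusted p = 0.0258) was lost without either N array (0.167 and 0.112) or either VE array (0.109 and 0.133).

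Among genes of the blood-brain barrier other than the 9, more were called lower than higher in each comparison. Of 17 measured, 2 rose and 5 fell in VE against N, 1 and 8 in VE+N against N, and 0 and 6 in VE+N against VE, with medians of -0.14, -0.52 and -0.25. These are 41.2%, 52.9% and 35.3%, beside 15.4%, 19.1% and 10.1% of all genes. The counts of 7, 9 and 6 fell to 4 (without N replicate 2 or VE replicate 2), 4 (without N replicate 2) and 3 (without VE replicate 1; 4 without VE replicate 2). Itm2a, a membrane protein enriched in brain endothelium, fell by 2.4 ± 0.169 on the log2 scale in VE and by 3.21 ± 0.169 in VE+N against N (limma adjusted p = 6.25e-05 and 8.39e-06). The lactate transporter Slc16a1 and the Wnt target Tnfrsf19 fell by 1.09 ± 0.111 and 1.12 ± 0.102 in VE+N against N (adjusted p = 0.000315 and 0.000181). The glucose transporter Slc2a1 fell by 0.77 ± 0.111 in VE+N against VE (adjusted p = 0.0038). The amino acid transporter Slc7a5 was highest in the VE-labelled line, with means of 6.74, 8.01 and 6.78. It rose by 1.27 ± 0.0999 in VE against N (adjusted p = 0.000111) and fell by 1.23 ± 0.0999 in VE+N against VE (adjusted p = 0.00024). The Wnt-induced gene Apcdd1 fell by 2.33 ± 0.216 in the same comparison (adjusted p = 0.000468), after a rise of 1.33 ± 0.216 in VE against N (adjusted p = 0.00456).

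**Figure D5:**
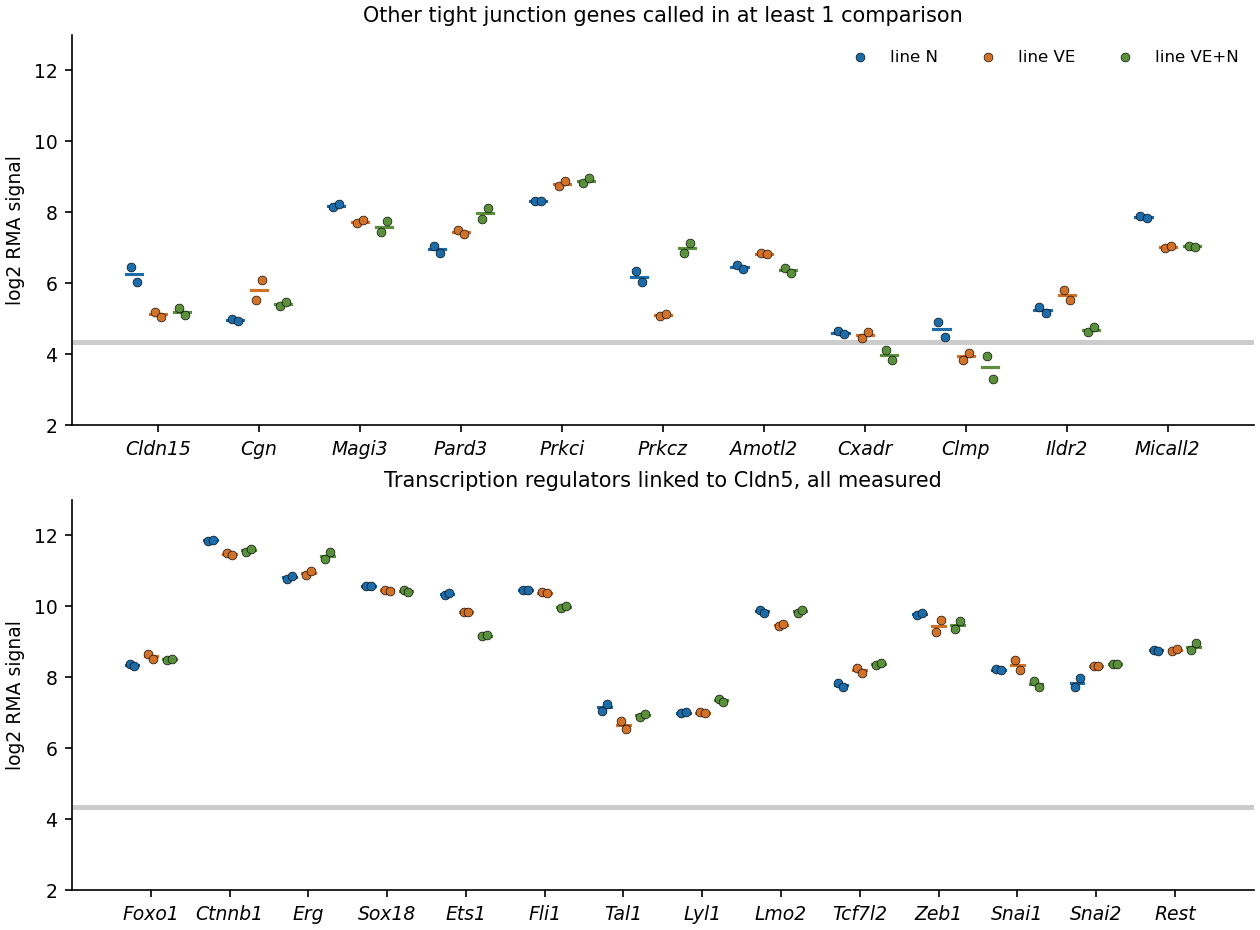
Log2 RMA signal (vertical axis) on each array by line (blue N, orange VE, green VE+N; short bars are means of 2 arrays) for the 11 other tight junction genes called in at least 1 comparison (top) and the 14 regulators linked to Cldn5 (bottom), with the dim reference as a grey band. Prkcz and Pard3 are highest in VE+N, Clmp and Cxadr reach below the band, and Ets1 falls from 10.35 through 9.84 to 9.17.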

How the data were processed

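The log2 values deposited by the authors come from RMA, run in Partek 6.3 per the submitters' processing notes, on Affymetrix Mouse Gene 1.0 ST arrays (150 ng of RNA each). Its background correction and quantile step can compress differences of dim genes. The log2 scale was read from the values, and the probe annotation's build is not given in the sources used here. Precision is limited by the number of arrays.

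Of 35556 probe sets, 21789 carried 1 gene symbol, brought up to date through Entrez identifiers (21698) or accessions (3), 12146 none and 1621 several. The brightest probe set of a gene was used (1001 genes had several), which left 19936 genes.

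Line means were fitted over all 6 arrays with limma 3.58.1 in R 4.3.3 (3 residual and 4.89 prior degrees of freedom), with Benjamini-Hochberg adjustment over all genes in each comparison and calls at adjusted p below 0.05. The script was tested on simulated data. The members and lists were chosen with earlier results of these data known. Text names all 9 members, the 5 genes nearest to Cldn5 and 3 nearest to each other member called in at least 2 comparisons. List genes were drawn mainly from up to 4 (tight junction list: 6) called genes with the largest difference in a list and comparison. Not all of these are named, least of all among the marker lists. Lists of epithelial, pluripotent, leukocyte, mural and endothelial markers served as checks. The alternatives were a fit on 4 arrays, a replicate block, median centring, quantile normalization again, removal of dim genes, the mean of probe sets, a trended robust prior, array weights, the methods' analysis of variance and each array left out. The same alternatives for list genes were added after the data were seen. Leaving out an array of the line not compared repeats the fit on 4 arrays, because a lone array adds nothing to the estimated spread. Promoter sequences are from RefSeq (GRCm38.p6).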

Additional observations from a re-analysis of the deposited data

How the results depend on the processing

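All 54 recomputed Cldn5 differences, 18 alternatives in each of 3 comparisons, kept their direction and their call. They ran from 2.91 to 3.12 for VE against N, 5.31 to 5.57 for VE+N against N and 2.29 to 2.55 for VE+N against VE, and the highest adjusted p was 0.0177, 0.00742 and 0.0414. Of 423 recomputed values of the other 8 genes, 347 kept direction and side of the threshold, 40 lost a call, 29 gained one and 7 turned sign. Both totals count a fit more than once. In each comparison the fit on 4 arrays and those without an array of the third line are the same. Calls lost under the methods' criterion of fold over 2 were fixed in advance, since every member but Cldn5 lies between -0.62 and 0.95. The turned values were called neither before nor after. With single arrays left out, Cldn12 ran from -0.46 to 0.10 and Esam from 0.00 to 0.15 in VE+N against N. In VE+N against VE, Tjp1 ran from -0.17 to 0.07 and Ocln from -0.34 to 0.11, and Tjp1 also turned with median centring (0.04). In VE+N against VE, Foxo1 turned to 0.01 with median centring, and Prkci ran from 0.00 to 0.16 with single arrays left out, both uncalled. The count of members called in VE against N, 3 in the main test, was 5 with 4 arrays, without the dimmest 25% of genes, with a trended robust prior and with array weights. Under the unmoderated analysis of variance of the methods, adjusted over all genes, the comparisons called 1, 2 and 1 members, and 1, 1 and 1 at their unadjusted p and fold over 2. With single arrays left out it ran from 1 to 5, 2 to 4 and 1 to 5. The cause was not tested, beyond that fewer arrays leave fewer degrees of freedom. Over all genes, the methods' analysis of variance called 1276, 1867 and 311 with adjustment (main 3079, 3802 and 2020), 4678 and 3996 at unadjusted p in VE against N and in VE+N against VE, and 751, 909 and 493 at fold over 2 as well, and left-out arrays brought the lowest counts to 1688, 2243 and 966. Calls among the other tight junction genes ran from 1 to 13, 1 to 13 and 0 to 8 over the alternatives, and among the regulators from 0 to 8, 1 to 8 and 0 to 6. The tight junction count of 0 came from the methods' analysis of variance with adjustment, which made 8 such calls at unadjusted p below 0.05. The regulator counts of 0 came from its fold criterion and, in VE against N, also from single arrays left out. Median centring moved all VE against N differences by -0.108. The labels do not say whether same-numbered arrays were handled together. Their deviations correlated at -0.005 between N and VE, 0.123 between N and VE+N and 0.069 between VE and VE+N, which cannot settle it. With the replicate number as a block 2, 4 and 4 members were called, Cgnl1 in VE against N being lost (adjusted p = 0.0581). Ocln on all arrays, and Clmp and Cxadr in VE+N, lie below the dim reference.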
